A study of Trichoderma reesei with 9 samples.

Results

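A comparison of the deletion strains Δvps21 and Δvps13 of Trichoderma reesei, without their parent, used 6 of the 9 libraries of the series. All genes of the deposited count table entered the comparison, 10348 in all, and the libraries were chosen by strain alone. T. reesei is a filamentous fungus that secretes large amounts of cellulases. Both strains were made in Rut-C30, a cellulase-hyperproducing mutant strain that carries a truncated cre1, the gene of a carbon catabolite repressor, so the truncation is shared by all libraries. Δvps21 has a deletion of vps21 and Δvps13 a deletion of vps13. Mycelia of both were taken after 96 h in medium with Avicel, a microcrystalline cellulose that induces cellulase genes, and their poly-A RNA was sequenced. Each strain had 3 libraries. Whether a strain was kept as 1 clone or several, and whether the libraries came from separate cultures, is not given in the sources used here, so the p values here rest on library-to-library variation that may be technical only.

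Vps21 and Vps13 act at different steps of the traffic to the vacuole, the acidic compartment in which fungi break down and store material. In yeast, Vps21 is a Rab5-family GTPase that recruits the proteins needed for the tethering and fusion of endosomes. Vps13 of yeast is a large protein that moves lipids between membranes at the sites where organelles touch. The contrast asks which transcripts differ between strains that have each lost 1 of these genes, and a difference may lie in either strain, since the parent is not part of it.

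Gene levels are given as CPM, counts scaled to a common library size, after TMM scaling, a factor per library that corrects for composition. Differences are log2 ratios of Δvps21 over Δvps13 with their standard error (SE), so a positive value means a higher level in Δvps21. A gene was called when its Benjamini-Hochberg adjusted p from the edgeR quasi-likelihood test, over all 8571 genes with enough counts, was below 0.05. In bulk RNA, a smaller share of cells of a kind and less RNA per cell cannot be told apart. A gene that rose or fell is one whose level here was higher or lower in Δvps21 than in Δvps13 and was called.

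The 3 Δvps21 libraries lay close together and the 3 Δvps13 libraries did not. Totals ran from 12574798 to 13094496 counts in Δvps21 and from 12127372 to 13493219 in Δvps13, and 9587 to 9621 and 9466 to 9581 genes were detected. The first principal component (52.9% of the variance) placed the Δvps21 libraries at -38.0, -33.6 and -42.3 and Δvps13 replicates 1, 2 and 3 at 21.8, 20.9 and 71.2. On the second component (31.8%) Δvps21 lay at 2.1, -24.8 and -12.3, whereas the Δvps13 replicates lay at 59.1, 16.7 and -40.9. The strains thus separated on the first component, with Δvps13 replicate 3 farthest out, and the Δvps13 libraries separated from each other on the second. The median SD between libraries of a gene's log2 CPM was 0.221 in Δvps21 and 0.491 in Δvps13.

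**Figure D1:**
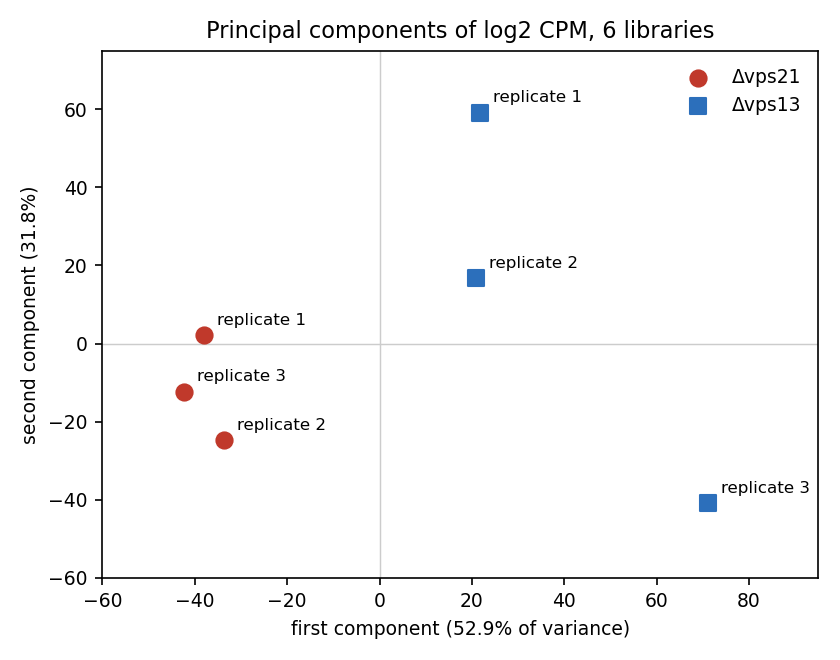
Principal components of log2 CPM over the 6 libraries, with the first component on the x axis, the second on the y axis and 1 point per library. Δvps21 libraries lie between -42.3 and -33.6 on the first component, and Δvps13 replicate 3 lies at 71.2, away from Δvps13 replicates 1 and 2.

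The table names no gene vps21, but it describes 2 genes as rab5-like GTPases, the family of Vps21. The first is TRIREDRAFT_123015, which lies on NW_006711164.1, 346840 to 347958. It was counted 2, 2 and 2 times in the Δvps21 libraries against 1740, 1295 and 1147 in the Δvps13 libraries. Its summed counts of 6 and 4182 give a 754.6-fold lower level in Δvps21 (95% exact interval for counting error alone 346.4 to 2057.4), with log2 -9.5 ± 0.33 SE, adjusted p = 4.25e-06. Of 23 tested genes of endosomes and vacuolar sorting this was the 1 gene called, and the other 22 lay between log2 -0.45 and 0.90. The second rab5-like gene, TRIREDRAFT_122593, had 175.1, 180.3 and 176.7 CPM in Δvps21 against 145.8, 192.9 and 219.2 CPM in Δvps13. These values overlapped between the strains and the gene was not called (adjusted p = 0.899). TRIREDRAFT_123015 is taken as the deleted gene from its description and these counts. No identifier was matched to vps13, so the deletion in Δvps13 was not checked in its transcript.

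Of the 8571 tested genes, 612 were called (7.14%), 337 of them higher in Δvps21 (3.93%) and 275 lower (3.21%). Their median log2 difference was 1.95 for the higher and -1.73 for the lower genes, and 584 differed at least 2-fold. In all 612 the Δvps21 libraries lay entirely above or below the Δvps13 libraries, which was so in 2675 of all tested genes (31.2%). Scaled by library totals alone, which moves the median log2 of all genes from -0.054 to 0.067, the calls were 328 higher and 166 lower. The number of calls rested on every Δvps21 library: it was 171 without Δvps21 replicate 1, 64 without replicate 2 and 76 without replicate 3. Of the 612 calls, 442 were lost whichever Δvps21 library was left out, so this loss, given below for single genes, was the usual outcome. Leaving out a Δvps13 library gave 916 calls (replicate 1), 380 (replicate 2) and 1463 (replicate 3). These fits tested 8681 to 8740 genes, and counts of list members called in them are to be read beside these totals. Called in the full comparison and in each of these 6 fits were 57 genes, 44 higher and 13 lower, of which 12 have an informative description. Over the whole set of calls 494 genes have no informative description, most of them being described only as predicted or hypothetical proteins. Of all 8571 tested genes 1539 have an informative description.

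**Figure D2:**
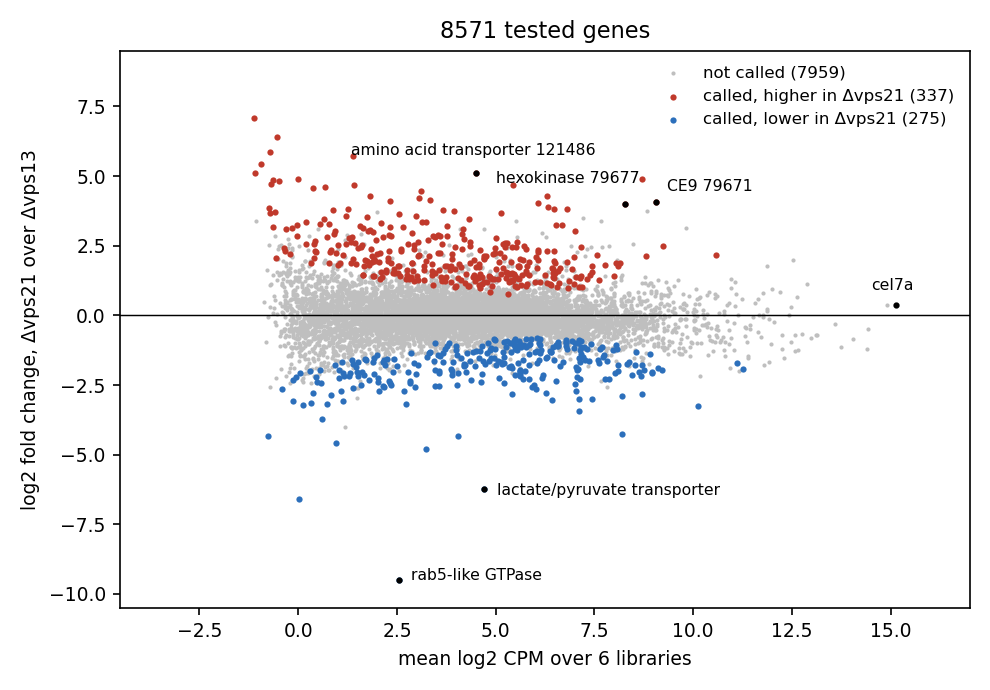
Log2 fold change of Δvps21 over Δvps13 on the y axis against the mean log2 CPM of the 6 libraries on the x axis, 1 point per tested gene. Red points are the 337 genes called higher in Δvps21, blue points the 275 called lower and grey points the others, and black points mark 6 named genes, of which cel7a is not called.

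Each Δvps13 library gave its own distance from Δvps21. Against the Δvps21 mean, 1288 genes were at least 2-fold higher and 853 at least 2-fold lower in Δvps21 when set beside Δvps13 replicate 1. Set beside replicate 2 the numbers were 785 and 622, and beside replicate 3 they were 1427 and 1291. Against all 3 libraries at once 371 genes were at least 2-fold higher and 208 lower. For 195 genes Δvps21 was at least 2-fold above 1 Δvps13 library and at least 2-fold below another. Of the 612 called genes, 525, 539 and 565 differed at least 2-fold in the called direction from Δvps13 replicates 1, 2 and 3.

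A hexokinase gene and 2 of its neighbours were among the largest rises. TRIREDRAFT_79677, described as a hexokinase, an enzyme type that phosphorylates sugars on entry into metabolism, had 1227.0, 1173.0 and 1333.7 CPM in Δvps21 against 66.8, 103.4 and 63.999 CPM in Δvps13. All Δvps21 libraries lay far above all Δvps13 libraries, a 15.9-fold difference (log2 3.99 ± 0.34 SE, adjusted p = 0.00114). TRIREDRAFT_79671 encodes a carbohydrate esterase of family 9, a family that includes N-acetylglucosamine-6-phosphate deacetylases, and had 2245.9, 2327.9 and 2838.5 CPM in Δvps21 against 71.4, 291.0 and 76.3 CPM in Δvps13. The strains did not overlap (log2 4.08 ± 0.62 SE, adjusted p = 0.00984), and Δvps13 replicate 2 was the highest of its strain. Between these genes lies TRIREDRAFT_49898, a predicted protein without an annotated domain, at 2570.9, 2182.1 and 2976.0 CPM in Δvps21 against 68.7, 163.1 and 26.9 CPM in Δvps13 (log2 4.9 ± 0.67 SE, adjusted p = 0.00645).

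The same stretch of scaffold NW_006711161.1, from 708757 to 729984 in the coordinates of the deposited table, holds 2 further tested genes. TRIREDRAFT_79669, a glycoside hydrolase of family 3, the family of many beta-glucosidases and of some N-acetylglucosaminidases, had 278.6, 216.9 and 263.1 CPM in Δvps21 against 120.8, 111.1 and 72.2 CPM in Δvps13 (log2 1.32 ± 0.28 SE, adjusted p = 0.0276). TRIREDRAFT_79673, with an NDT80_PhoG DNA-binding domain, had 228.2, 191.0 and 236.3 CPM in Δvps21 against 133.5, 127.4 and 82.8 CPM in Δvps13. Its strains did not overlap either, but it was not called (log2 0.93 ± 0.26 SE, adjusted p = 0.0714; 0.0454 without Δvps13 replicate 1). None of the 3 tested genes on either side of the stretch was called. On another scaffold nag1, a family 20 N-acetylglucosaminidase that releases the sugar from chitin fragments, had 478.3, 319.5 and 444.0 CPM in Δvps21 against 116.6, 111.2 and 49.6 CPM in Δvps13 (log2 2.16 ± 0.38 SE, adjusted p = 0.0150). TRIREDRAFT_49898, TRIREDRAFT_79673 and nag1 were picked after their values were seen. The calls of the hexokinase gene and of TRIREDRAFT_49898 held without any 1 library, whereas that of TRIREDRAFT_79671 was lost without Δvps21 replicate 2 (adjusted p = 0.0578). The calls of nag1 and TRIREDRAFT_79669 were lost when any 1 Δvps21 library was left out (adjusted p up to 0.0805 and 0.142), and that of TRIREDRAFT_79669 also without Δvps13 replicate 2 and with scaling by library totals alone (0.0721).

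**Figure D3:**
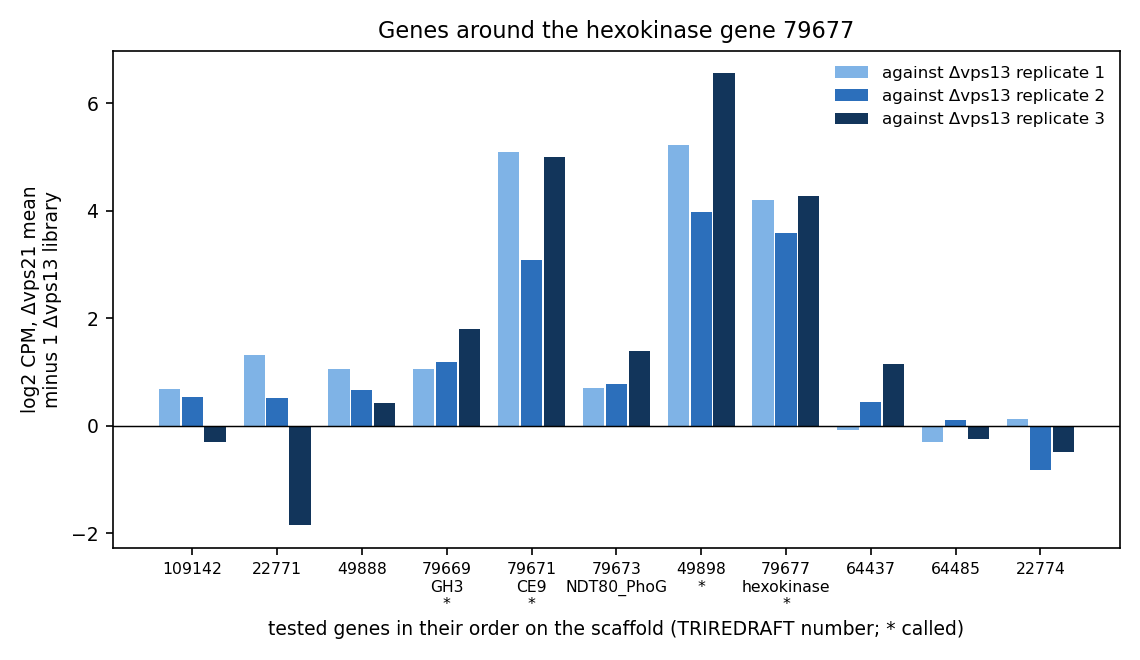
Difference in log2 CPM between the Δvps21 mean and each Δvps13 library (3 bars per gene) for 11 tested genes in their order on the scaffold. The bars of TRIREDRAFT_79671, TRIREDRAFT_49898 and TRIREDRAFT_79677 all exceed 3 in log2, and in the 6 outer genes the bars are shorter than these.

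A few sugar uptake genes moved strongly, and most were not called. Of 11 tested genes described as sugar transporters, 3 rose and none fell, a share of 27.3% beside 7.14% over all genes, and the other 8 lay between log2 -0.99 and 0.43. The list's median log2 was -0.06, against -0.054 over all genes. By annotated domain instead, counted after the values were seen, 6 genes rose and 3 fell among 60 with a sugar transporter domain (15.0%). TRIREDRAFT_106556 (NW_006711154.1, 999132 to 1000966), described as a galactose permease, had 195.1, 219.5 and 272.4 CPM in Δvps21 against 6.48, 14.8 and 5.54 CPM in Δvps13 (log2 4.67 ± 0.43 SE, adjusted p = 0.00162). A second such gene, TRIREDRAFT_62380, had 222.1, 282.3 and 374.0 CPM in Δvps21 against 19.01, 32.02 and 41.6 CPM in Δvps13 (log2 3.25 ± 0.37 SE, adjusted p = 0.00361). Neither overlapped between the strains, and both stood low in every Δvps13 library.

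TRIREDRAFT_69026, described as a sugar transporter, had 43.2, 37.05 and 41.6 CPM in Δvps21 against 3.06, 4.72 and 5.65 CPM in Δvps13 (log2 3.19 ± 0.3 SE, adjusted p = 0.00162). These 3 rises were called in each fit that left out 1 library. Members with no call included TRIREDRAFT_69957, a maltose permease, with 164.8, 209.7 and 175.0 CPM in Δvps21 against 111.8, 89.7 and 371.4 CPM in Δvps13, whose Δvps13 replicate 3 lay above all other libraries and replicates 1 and 2 below them (adjusted p = 0.956). Leaving out Δvps13 replicate 3 gave it a log2 of 0.86 and an adjusted p of 0.0350. TRIREDRAFT_72383, another galactose permease, had 213.7, 160.7 and 205.3 CPM in Δvps21 against 286.4, 229.8 and 179.3 CPM in Δvps13, with overlap (adjusted p = 0.607). An undescribed gene with a domain of the major facilitator superfamily, TRIREDRAFT_76633, picked after its values were seen, had 308.9, 302.6 and 353.7 CPM in Δvps21 against 23.7, 30.5 and 11.1 CPM in Δvps13 (log2 3.88 ± 0.39 SE, adjusted p = 0.00241).

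Among genes with at least 10 CPM in a strain, the steepest fall besides the deleted gene was also that of a transporter. TRIREDRAFT_121441 (NW_006711154.1, 943843 to 945764), described as a lactate/pyruvate transporter, a type of carrier for short organic acids, had 2.56, 3.78 and 2.85 CPM in Δvps21 against 346.5, 194.5 and 148.3 CPM in Δvps13. All Δvps13 libraries were far above all Δvps21 libraries, a 74.8-fold lower level in Δvps21 (log2 -6.23 ± 0.43 SE, adjusted p = 5.43e-04). TRIREDRAFT_65153, an undescribed gene with a sugar transporter domain that was picked after its values were seen, had 17.4, 16.2 and 14.8 CPM in Δvps21 against 86.1, 100.9 and 71.6 CPM in Δvps13 (log2 -2.42 ± 0.23 SE, adjusted p = 0.00168). Both calls held without any 1 library.

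Single genes of amino acid uptake and metabolism were called in both directions, beside 7.14% called over all genes. The list for uptake of nitrogen compounds and amino acids had 3 rises and 1 fall among 35 tested genes (11.4% called; median log2 -0.13). TRIREDRAFT_121486, a transmembrane amino acid transporter, had 135.1, 160.4 and 215.0 CPM in Δvps21 against 4.86, 9.35 and 0.443 CPM in Δvps13 (log2 5.1 ± 0.77 SE, adjusted p = 0.00971). Its Δvps13 libraries were all low but differed among themselves, with replicate 3 at 0.443 CPM. A member of the same transporter family, TRIREDRAFT_123718, went the other way, with 1, 0 and 1 counts in Δvps21 against 137, 28 and 57 counts in Δvps13. The summed counts of 2 and 222 correspond to a 120.2-fold lower level in Δvps21 (95% exact counting interval 32.9 to 998.4; adjusted p = 0.00505). TRIREDRAFT_123611, another amino acid transporter gene, had 104.5, 83.1 and 155.2 CPM in Δvps21 against 27.9, 43.4 and 20.6 CPM in Δvps13 (log2 1.9 ± 0.35 SE, adjusted p = 0.0179).

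In amino acid metabolism 4 of 93 tested genes rose and 1 fell (5.38%; median log2 0.01). TRIREDRAFT_120943, an NAD-dependent glutamate dehydrogenase, which releases ammonium from glutamate, had 1027.1, 949.4 and 1001.5 CPM in Δvps21 against 188.7, 367.0 and 122.5 CPM in Δvps13 (log2 2.13 ± 0.42 SE, adjusted p = 0.0232). Proline breakdown starts with proline dehydrogenase, and the gene described as such an enzyme, TRIREDRAFT_54564, had 92.4, 75.1 and 124.4 CPM in Δvps21 against 14.6, 28.1 and 6.201 CPM in Δvps13 (log2 2.57 ± 0.49 SE, adjusted p = 0.0204). Conversely, glt1, the glutamate synthase gene, whose enzyme makes glutamate in ammonium assimilation, had 206.7, 189.8 and 207.1 CPM in Δvps21 against 1433.5, 650.5 and 612.1 CPM in Δvps13 (log2 -2.16 ± 0.39 SE, adjusted p = 0.0176). In all 3 the strains did not overlap, and the Δvps21 libraries of glt1 were nearly equal while Δvps13 replicate 1 stood above the other 2.

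The call of TRIREDRAFT_123718 held without any 1 library. That of TRIREDRAFT_121486 was lost without Δvps21 replicate 2 (adjusted p = 0.0578). Those of TRIREDRAFT_123611, TRIREDRAFT_120943, TRIREDRAFT_54564 and glt1 were lost when any 1 Δvps21 library was left out, with adjusted p up to 0.0978, 0.106, 0.101 and 0.110. With any 1 Δvps21 library left out, 0 genes of amino acid metabolism were called, against 11 higher and 4 lower without Δvps13 replicate 3. Over all tested genes the fits without Δvps21 replicates 1, 2 or 3 called 171, 64 and 76, and that without Δvps13 replicate 3 called 1463 of 8707.

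Enzymes acting on chitin and beta-1,3-glucan, polymers of the fungal wall, formed the list with the most calls. Of 50 tested genes 11 rose and 3 fell, a share of 28.0% beside 7.14% over all genes, with a median log2 of 0.22. The chitinase gene chi18-5 had 414.9, 284.3 and 371.9 CPM in Δvps21 against 36.3, 29.9 and 9.74 CPM in Δvps13 (log2 3.81 ± 0.48 SE, adjusted p = 0.00505). TRIREDRAFT_112392, of the chitinase family 18 of glycoside hydrolases, had 21.98, 19.8 and 23.8 CPM in Δvps21 against 1.499, 0.253 and 2.104 CPM in Δvps13 (log2 4.1 ± 0.56 SE, adjusted p = 0.00642). Both were higher in every Δvps21 library than in any Δvps13 library.

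Several families of beta-1,3-glucanases were among the rises, named here after their values were seen. TRIREDRAFT_79602 of family 81 had 58.1, 44.98 and 52.5 CPM in Δvps21 against 8.52, 15.4 and 3.65 CPM in Δvps13 (log2 2.49 ± 0.45 SE, adjusted p = 0.0176). TRIREDRAFT_121746 of family 55 had 182.7, 160.0 and 176.7 CPM in Δvps21 against 33.1, 59.9 and 8.64 CPM in Δvps13 (log2 2.35 ± 0.57 SE, adjusted p = 0.0435), and TRIREDRAFT_124175 of family 64 had 106.7, 72.4 and 69.5 CPM in Δvps21 against 25.6, 20.8 and 5.54 CPM in Δvps13 (log2 2.25 ± 0.49 SE, adjusted p = 0.0321). TRIREDRAFT_123726 of family 16, a family that also holds wall-remodelling transglycosylases, had 102.0, 79.01 and 89.1 CPM in Δvps21 against 14.6, 19.1 and 4.98 CPM in Δvps13 (log2 2.79 ± 0.44 SE, adjusted p = 0.0105). In these 4 genes Δvps13 replicate 3 had the lowest level of all 6 libraries and the strains did not overlap.

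The 3 falls were also spread over chitin and glucan families. The chitinase gene chi18-2 had 63.7, 103.7 and 46.6 CPM in Δvps21 against 193.9, 399.2 and 1113.3 CPM in Δvps13 (log2 -3.0 ± 0.64 SE, adjusted p = 0.0285), with Δvps13 replicate 3 the highest. chi18-7, another chitinase gene, had 86.3, 125.7 and 75.5 CPM in Δvps21 against 202.7, 324.2 and 367.9 CPM in Δvps13 (log2 -1.64 ± 0.32 SE, adjusted p = 0.0231). TRIREDRAFT_122511, a second family 16 gene, had 30.4, 38.9 and 39.4 CPM in Δvps21 against 69.9, 84.2 and 130.1 CPM in Δvps13 (log2 -1.39 ± 0.28 SE, adjusted p = 0.0256). With Δvps21 replicates 1, 2 or 3 left out the list had 5, 2 and 2 rises and 0 falls, and with Δvps13 replicates 1, 2 or 3 left out 11, 12 and 18 rises with 4, 1 and 4 falls. Over all tested genes these fits called 171, 64, 76, 916, 380 and 1463 genes in the same order. The calls of chi18-5 and TRIREDRAFT_112392 held in all 6 of these fits, that of TRIREDRAFT_123726 was lost without Δvps21 replicate 2 or 3, and the others named here were lost when any 1 Δvps21 library was left out (adjusted p up to 0.151), TRIREDRAFT_121746 also without Δvps13 replicate 1, and TRIREDRAFT_124175 and the 3 falls also without Δvps13 replicate 2. Scaling by library totals alone ended the calls of TRIREDRAFT_121746 and TRIREDRAFT_124175 as well (adjusted p = 0.0556 and 0.0747).

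Cellulase genes did not differ in a way that passed the test. Of 14 tested genes of cellulases and cellulose-active proteins 0 were called by edgeR, with 3 at an unadjusted p below 0.05, and their median log2 was 0.17. DESeq2 called 0 higher and 1 lower, voom with quality weights 3 and 1, limma on FPKM 1 and 0 and the fit of all 9 libraries 1 and 0. cel7a, the gene of the main cellobiohydrolase of family 7, had 37771.2, 45564.0 and 42677.4 CPM in Δvps21 against 22179.6, 28287.5 and 45673.1 CPM in Δvps13 (adjusted p = 0.720). TRIREDRAFT_72567, a cellobiohydrolase-family (family 6) gene, had 30650.8, 38523.4 and 39355.0 CPM in Δvps21 against 16435.8, 24370.5 and 44021.3 CPM in Δvps13 (adjusted p = 0.760). For both, Δvps13 replicates 1 and 2 lay below all Δvps21 libraries and Δvps13 replicate 3 above them, by little in cel7a. The expansin gene TRIREDRAFT_123992, whose family loosens cellulose, had 5047.3, 4693.1 and 4829.6 CPM in Δvps21 against 6666.0, 6154.9 and 10745.4 CPM in Δvps13, with every Δvps21 library below every Δvps13 library but no call (log2 -0.69 ± 0.41 SE, adjusted p = 0.348).

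The summed CPM of the cellulase list was 97178, 118851 and 112778 in Δvps21 against 60544, 76934 and 135912 in Δvps13. Against Δvps13 replicates 1, 2 and 3 the list's median difference in log2 CPM was 0.96, 0.42 and -0.4, so its sign depended on the library. Without Δvps13 replicate 3 edgeR called 3 members higher, without replicate 2 it called 1, and without any 1 of the other libraries 0. Over all tested genes it called 1463 of 8707 without Δvps13 replicate 3 and 380 of 8740 without replicate 2. The same order of the Δvps13 libraries appeared in beta-glucosidases, at 1.04, 0.36 and -0.34 for the median, and in hemicellulases, at 0.36, 0.29 and -0.7. It was not particular to these enzymes, since cytosolic ribosomal proteins, at 0.09, 0.02 and -0.43, and redox genes, at 0.49, 0.11 and 0.02, had it too.

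**Figure D4:**
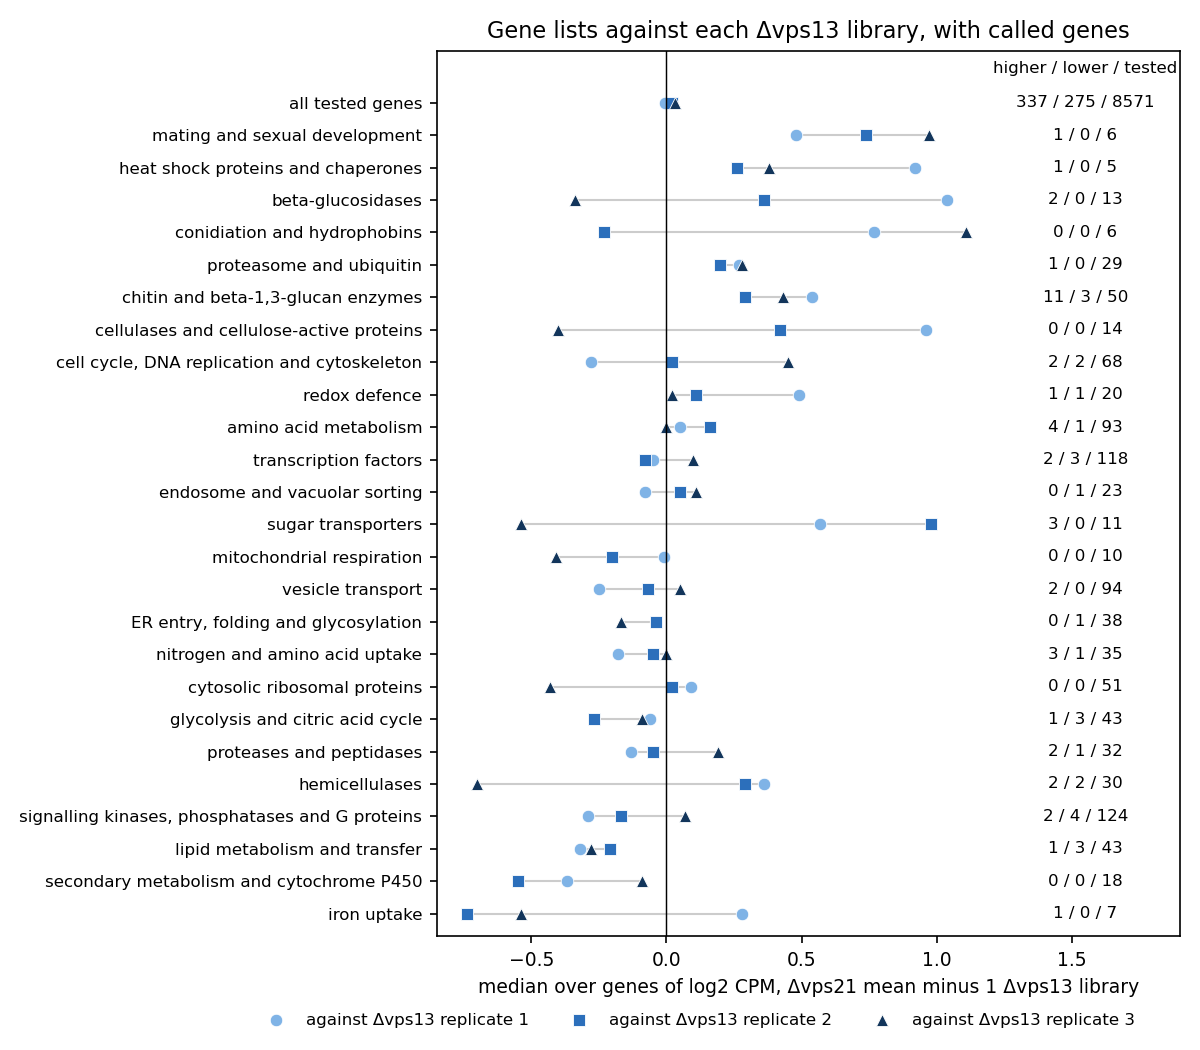
Median over a list's tested genes of the difference in log2 CPM between the Δvps21 mean and each Δvps13 library (3 symbols per list, x axis), for all tested genes and for the lists with 5 or more tested genes. The numbers at the right give called higher, called lower and tested genes. The 3 symbols of the cellulases, beta-glucosidases, hemicellulases and sugar transporters lie on both sides of 0, as do those of other lists, such as cytosolic ribosomal proteins.

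The beta-glucosidase list includes genes described only as family 3, and whether each encodes a beta-glucosidase was not tested. Of its 13 tested genes 2 rose and none fell (15.4%, beside 7.14% over all genes). Besides TRIREDRAFT_79669 of the hexokinase stretch this was TRIREDRAFT_47268, a family 3 gene with 133.0, 124.6 and 127.5 CPM in Δvps21 against 45.9, 55.1 and 15.9 CPM in Δvps13 (log2 1.72 ± 0.41 SE, adjusted p = 0.0417). cel1a, an intracellular beta-glucosidase gene of family 1, had 3337.3, 3705.1 and 3313.5 CPM in Δvps21 against 1671.3, 3518.7 and 5026.1 CPM in Δvps13, with Δvps21 inside the range of Δvps13 (adjusted p = 0.983). Of 30 tested hemicellulase genes 2 rose and 2 fell (13.3%). The rises were TRIREDRAFT_55319 of the arabinofuranosidase family 54, at 27.9, 37.7 and 30.5 CPM in Δvps21 against 2.099, 9.27 and 2.33 CPM in Δvps13 (log2 2.81 ± 0.55 SE, adjusted p = 0.0231), and TRIREDRAFT_69245 of family 2, at 14.4, 16.6 and 20.7 CPM in Δvps21 against 5.52, 8.51 and 5.09 CPM in Δvps13 (log2 1.43 ± 0.31 SE, adjusted p = 0.0315). The falls were 2 further family 2 genes, TRIREDRAFT_59689, at 3.98, 4.23 and 3.25 CPM in Δvps21 against 11.1, 19.5 and 18.6 CPM in Δvps13 (log2 -2.09 ± 0.33 SE, adjusted p = 0.0105), and TRIREDRAFT_76852, at 48.01, 67.4 and 50.5 CPM in Δvps21 against 93.9, 231.2 and 257.3 CPM in Δvps13 (log2 -1.81 ± 0.38 SE, adjusted p = 0.0283). The strains did not overlap in any of these 4 called hemicellulase genes.

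Among hemicellulase genes with no call, TRIREDRAFT_123818, a xylanase gene of family 11, had 1246.5, 1547.4 and 1357.6 CPM in Δvps21 against 1585.2, 1567.6 and 4017.0 CPM in Δvps13 (adjusted p = 0.325). All its Δvps21 libraries lay below all Δvps13 libraries, of which replicate 3 stood apart. TRIREDRAFT_49081, of the xyloglucanase family 74, had 3660.5, 4508.1 and 3177.2 CPM in Δvps21 against 1966.8, 2612.4 and 6635.0 CPM in Δvps13, with Δvps21 inside the range of Δvps13 (adjusted p = 0.987). With any 1 Δvps21 library left out, 0 beta-glucosidase and 0 hemicellulase genes were called. Without Δvps13 replicate 2 TRIREDRAFT_79669, TRIREDRAFT_47268 and TRIREDRAFT_76852 lost their calls too. With scaling by library totals alone both beta-glucosidase calls were lost (adjusted p = 0.0721 for TRIREDRAFT_79669 and 0.0820 for TRIREDRAFT_47268), which left 0 rises in that list. Without Δvps13 replicate 3 there were 4 rises among beta-glucosidases and 7 rises and 3 falls among hemicellulases, beside 1463 calls among all 8707 genes tested in that fit.

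Regulators of these enzymes were not called. xyr1, the main activator of cellulase and xylanase genes, had 1626.6, 1881.8 and 1658.1 CPM in Δvps21 against 794.9, 1711.9 and 2425.8 CPM in Δvps13 (adjusted p = 0.943). cre1 had 1374.9, 1525.9 and 1617.7 CPM in Δvps21 against 532.7, 1054.5 and 1240.3 CPM in Δvps13, with all Δvps21 libraries above all Δvps13 libraries (adjusted p = 0.319). ace1, a repressor gene, had 602.8, 526.6 and 677.4 CPM in Δvps21 against 537.7, 842.8 and 335.8 CPM in Δvps13 (adjusted p = 0.927). For xyr1 and ace1 the Δvps21 values fell inside the range of Δvps13.

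The secretory route showed few differences. In ER entry, folding and glycosylation 0 of 38 tested genes rose and 1 fell (2.63%, beside 7.14% over all genes, with a median log2 of -0.12). The fall was TRIREDRAFT_5350, the beta subunit of the receptor that docks ribosomes with new secretory proteins at the ER, with 39.3, 39.2 and 40.6 CPM in Δvps21 against 90.5, 100.2 and 171.2 CPM in Δvps13 (log2 -1.6 ± 0.28 SE, adjusted p = 0.0163). bip1, the ER chaperone gene, had 1596.0, 2151.5 and 2226.6 CPM in Δvps21 against 940.1, 1528.1 and 1239.9 CPM in Δvps13, which did not overlap but was not called (log2 0.69 ± 0.34 SE, adjusted p = 0.266). pdi1, whose product forms disulfide bonds, had 839.2, 1093.8 and 913.7 CPM in Δvps21 against 718.0, 903.0 and 826.2 CPM in Δvps13, and ire1, the sensor of unfolded proteins, had 445.3, 358.9 and 416.9 CPM in Δvps21 against 495.0, 519.5 and 424.7 CPM in Δvps13. Both overlapped (adjusted p = 0.703 and 0.630).

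In vesicle transport 2 of 94 tested genes rose and none fell (2.13%, beside 7.14% over all genes, with a median log2 of -0.12). TRIREDRAFT_63053, a small GTPase of the Rab family, which steers vesicles to their targets, had 61.6, 72.4 and 78.03 CPM in Δvps21 against 24.9, 37.2 and 14.1 CPM in Δvps13 (log2 1.47 ± 0.34 SE, adjusted p = 0.0388). TRIREDRAFT_107255, an ADP-ribosylation factor-like gene, had 10.5, 12.6 and 11.4 CPM in Δvps21 against 4.26, 4.13 and 4.87 CPM in Δvps13 (log2 1.38 ± 0.28 SE, adjusted p = 0.0257). These calls and that of TRIREDRAFT_5350 were lost when any 1 Δvps21 library was left out (adjusted p up to 0.173), that of TRIREDRAFT_63053 also without Δvps13 replicate 1 and with scaling by library totals alone (0.0695), and that of TRIREDRAFT_107255 also without Δvps13 replicate 2. Leaving out Δvps13 replicate 3 instead gave 5 rises and 5 falls in vesicle transport and 0 rises and 3 falls in the ER list. That fit called 1463 of all 8707 genes it tested.

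Of 51 genes of cytosolic ribosomal proteins 0 were called by edgeR, DESeq2, voom or limma on FPKM, and 0 had an unadjusted edgeR p below 0.05 (median log2 -0.13). Their edgeR count was 0 also with any 1 library left out. The list's median difference in log2 CPM was 0.09, 0.02 and -0.43 against Δvps13 replicates 1, 2 and 3. rps31, a ribosomal protein gene fused to ubiquitin, had 412.6, 503.3 and 466.3 CPM in Δvps21 against 422.0, 468.8 and 845.9 CPM in Δvps13, where Δvps13 replicate 3 alone stood apart (adjusted p = 0.607). Of 29 tested proteasome and ubiquitin genes 1 rose (3.45%, beside 7.14% over all genes, with a median log2 of 0.24). Of 10 mitochondrial respiration genes 0 were called by edgeR, with 1 at an unadjusted p below 0.05, 1 called lower by DESeq2, and 1 called higher and 1 lower by voom. Of 18 tested genes for secondary metabolites or cytochromes P450 (median log2 -0.44) 0 were called by edgeR, with 4 at an unadjusted p below 0.05, 3 called lower by DESeq2 and 9 by voom. With Δvps13 replicates 1, 2 or 3 left out edgeR called 1, 1 and 5 of them lower and 0 higher, and with any 1 Δvps21 library left out it called 0. By annotated domain instead, counted after the values were seen, 2 genes rose and 3 fell among 45 with a cytochrome P450 domain. That share was 11.1%, beside 7.14% over all genes, with a median log2 of -0.61.

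Among proteases and peptidases 2 of 32 tested genes rose and 1 fell (9.38%, beside 7.14% over all genes, with a median log2 of -0.18). TRIREDRAFT_121133, an aspartic peptidase of family A1, had 79.9, 69.3 and 79.5 CPM in Δvps21 against 13.4, 20.7 and 19.7 CPM in Δvps13 (log2 2.09 ± 0.25 SE, adjusted p = 0.00420). TRIREDRAFT_47127, an aminopeptidase-type gene of family M18, had 132.5, 151.0 and 140.9 CPM in Δvps21 against 27.5, 57.5 and 20.8 CPM in Δvps13 (log2 2.0 ± 0.37 SE, adjusted p = 0.0189), and TRIREDRAFT_58698, a serine protease gene, had 33.6, 31.5 and 36.1 CPM in Δvps21 against 94.9, 175.1 and 210.8 CPM in Δvps13 (log2 -2.25 ± 0.32 SE, adjusted p = 0.00721). The strains did not overlap in any of them. The call of TRIREDRAFT_121133 held without any 1 library, that of TRIREDRAFT_58698 was lost without Δvps21 replicate 2 or 3 (adjusted p up to 0.0636) and that of TRIREDRAFT_47127 when any 1 Δvps21 library was left out (up to 0.0912).

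In glycolysis and the citric acid cycle 1 of 43 tested genes rose, the hexokinase gene, and 3 fell (9.30%, beside 7.14% over all genes, with a median log2 of -0.17). TRIREDRAFT_5776, a glucose-6-phosphate isomerase gene, had 117.7, 122.2 and 99.1 CPM in Δvps21 against 223.3, 363.1 and 510.4 CPM in Δvps13 (log2 -1.69 ± 0.33 SE, adjusted p = 0.0231). pgk1, the gene of phosphoglycerate kinase, an ATP-forming step of glycolysis, had 1285.4, 1473.8 and 1253.1 CPM in Δvps21 against 2368.5, 5229.6 and 7671.6 CPM in Δvps13 (log2 -1.93 ± 0.48 SE, adjusted p = 0.0486) and was picked after its values were seen. The lactate dehydrogenase-like gene TRIREDRAFT_122010 had 221.0, 226.5 and 178.4 CPM in Δvps21 against 463.8, 705.2 and 1372.4 CPM in Δvps13 (log2 -2.02 ± 0.42 SE, adjusted p = 0.0276). In each, Δvps13 replicate 1 was nearest to Δvps21 and replicate 3 farthest.

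The summed CPM of this list was 47685, 44119 and 48702 in Δvps21 against 61609, 95597 and 116192 in Δvps13. lxr1, an L-xylulose reductase gene of pentose metabolism, had 159.5, 175.3 and 182.8 CPM in Δvps21 against 510.7, 910.6 and 2226.0 CPM in Δvps13 in the same order of libraries (log2 -2.82 ± 0.53 SE, adjusted p = 0.0198). These falls were called in none of the fits without a Δvps21 library (adjusted p up to 0.237 for pgk1, 0.145 for TRIREDRAFT_5776, 0.156 for TRIREDRAFT_122010 and 0.111 for lxr1), and those of the 3 list members were also lost without Δvps13 replicate 2. pgk1 in addition lost its call in the fit on deposited FPKM (adjusted p = 0.0590).

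In lipid metabolism and transfer 1 of 43 tested genes rose and 3 fell (9.30%, beside 7.14% over all genes, with a median log2 of -0.3). The rise was TRIREDRAFT_70527, a lysophospholipase gene, with 13.7, 10.1 and 10.4 CPM in Δvps21 against 1.98, 1.01 and 1.88 CPM in Δvps13 (log2 2.8 ± 0.38 SE, adjusted p = 0.00607), and it held without any 1 library. TRIREDRAFT_55631, a phospholipase gene, had 80.4, 96.4 and 75.02 CPM in Δvps21 against 174.8, 196.5 and 199.9 CPM in Δvps13 (log2 -1.18 ± 0.22 SE, adjusted p = 0.0202). TRIREDRAFT_59846 encodes lanosterol synthase, which closes the sterol rings, and had 40.4, 38.6 and 40.2 CPM in Δvps21 against 84.2, 85.2 and 79.9 CPM in Δvps13 (log2 -1.06 ± 0.19 SE, adjusted p = 0.0176). In both of these falls the Δvps13 libraries were close together and above Δvps21. The calls were lost when any 1 Δvps21 library was left out (adjusted p up to 0.156 and 0.134) and with scaling by library totals alone (0.0629 and 0.118).

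Redox, iron, drug transport and heat shock lists held 1 or 2 calls each, counts too small to set against the 7.14% called over all genes. Among 20 tested redox genes 1 rose and 1 fell (median log2 0.04). The fall was a glutathione transferase gene, TRIREDRAFT_41895, with 37.8, 31.6 and 21.4 CPM in Δvps21 against 151.7, 161.7 and 318.8 CPM in Δvps13 (log2 -2.8 ± 0.38 SE, adjusted p = 0.00607), and the rise a gene described as an ER glutathione S-transferase, TRIREDRAFT_66432, with 5.73, 8.17 and 5.07 CPM in Δvps21 against 0.6596, 1.095 and 1.44 CPM in Δvps13 (log2 2.6 ± 0.43 SE, adjusted p = 0.0134). In iron uptake 1 of 7 tested genes rose (14.3%; median log2 -0.53), the high-affinity iron permease-like gene TRIREDRAFT_80639, with 6.54, 4.99 and 8.16 CPM in Δvps21 against 0.2998, 1.18 and 1.44 CPM in Δvps13 (log2 2.81 ± 0.55 SE, adjusted p = 0.0231). Its values were low in all libraries, although the strains did not overlap. Of the 7 iron uptake genes 4 had an unadjusted edgeR p below 0.05. DESeq2 called 1 of them higher and 2 lower, voom 2 and 4, limma on FPKM 1 and 0, and the fit of all 9 libraries 1 and 2. Without Δvps13 replicate 1 edgeR called 1 higher and 3 lower (916 calls over all genes). Without replicate 3 it called 2 and 2 (1463 over all genes), and without any 1 of the other libraries 0. Of 4 ABC and drug transporter genes 1 rose (median log2 0.34), TRIREDRAFT_123293, with 524.7, 485.7 and 692.6 CPM in Δvps21 against 90.2, 218.9 and 148.4 CPM in Δvps13 (log2 1.9 ± 0.37 SE, adjusted p = 0.0223), and of 5 heat shock genes (median log2 0.67) 1 rose, the mitochondrial hsp60-like gene TRIREDRAFT_119731, with 222.9, 235.7 and 390.6 CPM in Δvps21 against 68.8, 116.4 and 127.1 CPM in Δvps13 (log2 1.44 ± 0.34 SE, adjusted p = 0.0409). TRIREDRAFT_41895 lost its call without Δvps21 replicate 2 (adjusted p = 0.0578), TRIREDRAFT_66432 without Δvps21 replicate 2 or 3 (up to 0.0812), and the other 3 when any 1 Δvps21 library was left out (up to 0.183), TRIREDRAFT_80639 and TRIREDRAFT_119731 also without Δvps13 replicate 2. The heat shock list rests on descriptions. An undescribed gene with an HSP70 domain, TRIREDRAFT_121839, named after its values were seen, fell, and its call held without any 1 library. bip1, which also has an HSP70 domain, was not called.

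Of 118 tested transcription factor genes 2 rose and 3 fell (4.24%, beside 7.14% over all genes, with a median log2 of -0.03). TRIREDRAFT_121138, described by an N-terminal domain of fungal transcription regulators, had 41.1, 48.01 and 55.8 CPM in Δvps21 against 130.1, 548.8 and 885.7 CPM in Δvps13 (log2 -3.43 ± 0.62 SE, adjusted p = 0.0172), with Δvps13 replicate 1 well below replicates 2 and 3. The basic leucine zipper gene TRIREDRAFT_73654 had 22.9, 20.03 and 20.8 CPM in Δvps21 against 61.3, 77.01 and 91.8 CPM in Δvps13 (log2 -1.85 ± 0.23 SE, adjusted p = 0.00505). TRIREDRAFT_28781, with an NDT80/PhoG DNA-binding domain, had 58.1, 66.2 and 75.4 CPM in Δvps21 against 15.7, 25.7 and 20.2 CPM in Δvps13 (log2 1.7 ± 0.26 SE, adjusted p = 0.00936). TRIREDRAFT_73654 lost its call without Δvps21 replicate 2 (adjusted p = 0.0510), TRIREDRAFT_28781 without Δvps21 replicate 2 or 3 (up to 0.0637) and TRIREDRAFT_121138 when any 1 Δvps21 library was left out (up to 0.101). The list rests on descriptions and leaves out undescribed genes with such domains. Among these, TRIREDRAFT_3449 (zinc cluster domain) and TRIREDRAFT_54675 (NDT80_PhoG domain), named after their values were seen, rose and kept their calls without any 1 library. By annotated domain, 1 gene rose and 2 fell among 81 with a zinc cluster domain (3.70%).

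In signalling 2 of 124 tested genes rose and 4 fell (4.84%, beside 7.14% over all genes, with a median log2 of -0.23). Among the falls were genes of G protein-coupled receptors, which sense signals at the cell surface: TRIREDRAFT_76763 of the PTH11 type had 7.42, 8.85 and 12.04 CPM in Δvps21 against 38.02, 34.3 and 42.96 CPM in Δvps13 (log2 -2.03 ± 0.27 SE, adjusted p = 0.00593), and TRIREDRAFT_119819 had 72.02, 72.9 and 63.1 CPM in Δvps21 against 181.7, 217.7 and 403.5 CPM in Δvps13 (log2 -1.95 ± 0.33 SE, adjusted p = 0.0148). Without Δvps13 replicates 1, 2 or 3 edgeR called 2, 1 and 4 signalling genes higher and 7, 3 and 22 lower. Over all genes these fits called 916, 380 and 1463. Without Δvps21 replicates 1, 2 or 3 it called 0 signalling genes higher and 1, 0 and 1 lower. DESeq2 called 4 higher and 14 lower, voom 10 and 27, limma on FPKM 3 and 4, and the fit of all 9 libraries 5 and 14. In cell cycle, replication and cytoskeleton 2 of 68 rose and 2 fell (5.88%, with a median log2 of 0.05). The beta-tubulin genes, whose products form microtubules, went opposite ways, with 125.1, 151.2 and 146.7 CPM in Δvps21 against 54.2, 65.05 and 49.1 CPM in Δvps13 for TRIREDRAFT_21742 (log2 1.33 ± 0.22 SE, adjusted p = 0.0138) and 85.1, 90.6 and 91.98 CPM in Δvps21 against 194.6, 145.0 and 161.2 CPM in Δvps13 for TRIREDRAFT_122886 (log2 -0.9 ± 0.22 SE, adjusted p = 0.0472). TRIREDRAFT_66486, a kinesin gene, of the motors that move on microtubules, had 220.4, 245.0 and 227.0 CPM in Δvps21 against 408.6, 1022.1 and 1275.0 CPM in Δvps13 (log2 -1.97 ± 0.42 SE, adjusted p = 0.0305). TRIREDRAFT_76763 lost its call without Δvps21 replicate 2 (adjusted p = 0.0578). The others were lost when any 1 Δvps21 library was left out (up to 0.232), TRIREDRAFT_66486 also without Δvps13 replicate 2 and TRIREDRAFT_122886 also without Δvps13 replicate 1 or 2, with scaling by library totals alone (0.208) and without a filter on low counts (0.0555).

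Markers of conidia and of mating are given beside the mycelium label. They cannot check that label, since no library of conidia or of a mating culture was there for comparison. Of 6 tested genes of conidiation and hydrophobins, small wall-coating proteins of aerial hyphae and spores, 0 were called by edgeR, with 1 at an unadjusted p below 0.05. DESeq2 and voom each called 1 higher and limma on FPKM 0. Their summed level was 8628 to 12608 CPM in Δvps21 against 1970 to 10501 CPM in Δvps13. hfb2 had 5789.2, 8636.0 and 6712.0 CPM in Δvps21 against 3048.7, 7567.9 and 1324.4 CPM in Δvps13, and hfb3 had 1739.9, 2721.4 and 2163.6 CPM in Δvps21 against 870.5, 2550.2 and 511.3 CPM in Δvps13 (adjusted p = 0.465 and 0.475). In both, Δvps13 replicate 2 fell among the Δvps21 libraries and replicates 1 and 3 below them. Another hydrophobin gene, of class II, TRIREDRAFT_106538, had 977.6, 1138.4 and 959.7 CPM in Δvps21 against 72.9, 220.0 and 4.097 CPM in Δvps13, with all Δvps21 libraries above all Δvps13 libraries. It missed the threshold (log2 3.37 ± 1.03 SE, adjusted p = 0.0874) but was called once Δvps13 replicate 3 was left out (0.00417).

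Of 6 tested mating and sexual development genes 1 rose (16.7%, beside 7.14% over all genes), and the summed level was 61 to 69 CPM in Δvps21 against 38 to 63 CPM in Δvps13. The rise was mata1, a mating type gene, with 11.4, 9.53 and 9.98 CPM in Δvps21 against 4.44, 4.21 and 3.65 CPM in Δvps13 (log2 1.32 ± 0.29 SE, adjusted p = 0.0316). Its call was lost when any 1 Δvps21 library was left out, without Δvps13 replicate 2 (adjusted p up to 0.156) and with scaling by library totals alone (0.0788). Of the marker genes, 1 of 7 in the first list and 2 of 8 in the second did not pass the count filter. The part of a difference in development in any other result was not tested.

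The Δvps13 libraries differed from each other in named genes, which set the limits of the comparison. Replicate 3 had 729 genes at least 2-fold above and 762 at least 2-fold below both other Δvps13 libraries. Replicate 1 had 335 and 576, and replicate 2 had 143 and 85. The named genes in the next sentences were chosen as those with the largest gaps between the Δvps13 libraries, so the gaps are a description.

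Replicate 1 stood high in 3 of the genes so chosen. acs1, the acetyl-CoA synthase gene, had 1878.9, 1085.4 and 1410.3 CPM in Δvps21 against 5702.3, 1735.9 and 1153.9 CPM in Δvps13. Its Δvps13 replicate 3 fell among the Δvps21 libraries. An aldehyde dehydrogenase gene, TRIREDRAFT_78683, had 883.5, 441.7 and 632.9 CPM in Δvps21 against 6293.0, 1555.2 and 987.1 CPM in Δvps13, with all Δvps21 libraries below all Δvps13 libraries. The class III aminotransferase gene TRIREDRAFT_121405 had 596.4, 284.2 and 772.3 CPM in Δvps21 against 1355.1, 368.5 and 183.4 CPM in Δvps13. None of these passed the test over the 3 libraries (adjusted p = 0.364, 0.0960 and 0.891), and TRIREDRAFT_78683 did without Δvps13 replicate 3 (0.0123).

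Lowest in replicate 1 were TRIREDRAFT_121800, of the SPFH domain family, at 634.5, 794.7 and 741.7 CPM in Δvps21 against 161.2, 532.5 and 641.1 CPM in Δvps13, and the basic leucine zipper gene TRIREDRAFT_73417, at 599.9, 843.2 and 858.8 CPM in Δvps21 against 198.9, 963.5 and 643.2 CPM in Δvps13. In replicate 2 the cell wall protein gene TRIREDRAFT_120823 was high, with 342.0, 518.6 and 438.8 CPM in Δvps21 against 178.1, 541.0 and 108.0 CPM in Δvps13, and cip2, a gene with a cellulose-binding module, was low, with 1543.8, 1253.3 and 1319.1 CPM in Δvps21 against 1932.4, 731.0 and 1304.2 CPM in Δvps13. These 4 genes overlapped between the strains and were not called.

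In replicate 2 the NADP-dependent glutamate dehydrogenase gene TRIREDRAFT_73536 was also low, with 53.8, 68.3 and 53.7 CPM in Δvps21 against 169.5, 54.1 and 129.4 CPM in Δvps13 (adjusted p = 0.150, and 0.0368 without Δvps13 replicate 2). An amidase gene with the same gap, TRIREDRAFT_121154, had 26.5, 31.4 and 18.3 CPM in Δvps21 against 125.4, 64.9 and 114.5 CPM in Δvps13 and was called all the same (log2 -2.0 ± 0.32 SE, adjusted p = 0.0117), though not when any 1 Δvps21 library was left out (adjusted p up to 0.0792).

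Replicate 3 stood high in 3 glycoside hydrolase genes among those chosen. The family 54 gene TRIREDRAFT_123283 had 187.3, 191.9 and 151.3 CPM in Δvps21 against 24.9, 31.1 and 181.1 CPM in Δvps13. TRIREDRAFT_76210 of the arabinofuranosidase family 62 had 441.7, 583.1 and 433.0 CPM in Δvps21 against 212.0, 198.0 and 922.3 CPM in Δvps13, and TRIREDRAFT_80240 of the beta-galactosidase family 35 had 321.5, 407.2 and 343.0 CPM in Δvps21 against 295.9, 340.7 and 1320.1 CPM in Δvps13. Δvps13 replicates 1 and 2 lay below all Δvps21 libraries in TRIREDRAFT_123283 and TRIREDRAFT_76210, and replicate 3 lay among or above them. In TRIREDRAFT_80240 Δvps13 replicate 2 also fell among the Δvps21 libraries. Without Δvps13 replicate 3, TRIREDRAFT_123283 and TRIREDRAFT_76210 were called higher in Δvps21 (log2 2.66, adjusted p = 1.98e-04, and log2 1.24, adjusted p = 0.0171).

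On the low side of replicate 3, the multicopper oxidase gene TRIREDRAFT_124079 had 182.9, 185.9 and 177.6 CPM in Δvps21 against 26.4, 49.6 and 1.11 CPM in Δvps13. tr42600, the gene of 4-hydroxyphenylpyruvate dioxygenase, an enzyme of tyrosine breakdown, had 523.5, 262.3 and 560.3 CPM in Δvps21 against 93.2, 145.9 and 2.77 CPM in Δvps13. Both had all Δvps21 libraries above all Δvps13 libraries yet missed the threshold (adjusted p = 0.0969 and 0.171), and without Δvps13 replicate 3 both were called (0.00113 and 0.00982).

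**Figure D5:**
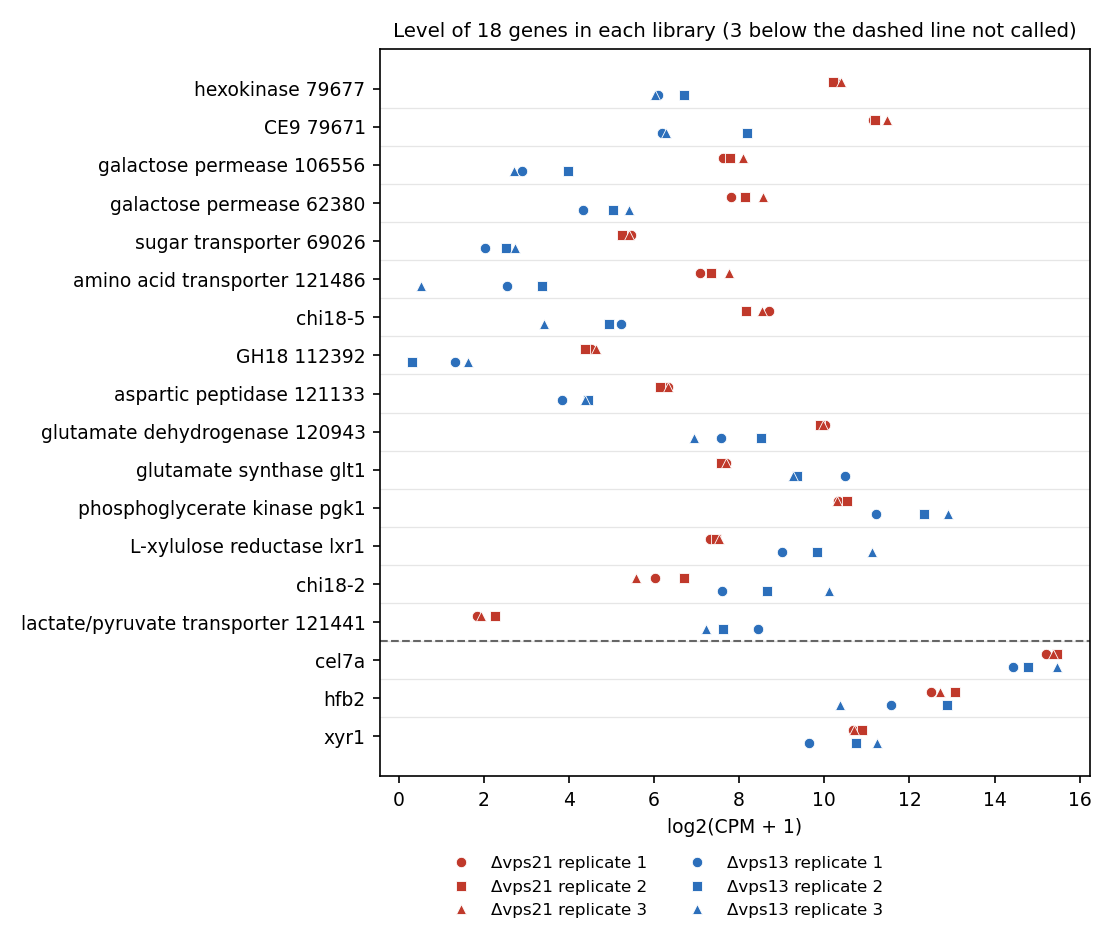
Level of 18 genes as log2(CPM + 1) on the x axis in each library, with Δvps21 in red above Δvps13 in blue and a symbol per replicate. In the 15 genes above the dashed line the strains do not overlap, and in cel7a, hfb2 and xyr1 at least 1 Δvps13 library lies among or beyond the Δvps21 libraries.

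Genes with little or no description were also among the largest called ratios. TRIREDRAFT_68997, a predicted protein, had 15.4, 16.6 and 16.9 CPM in Δvps21 against 0.2998, 0.0843 and 0.554 CPM in Δvps13 (log2 5.73 ± 0.5 SE, adjusted p = 0.00114). TRIREDRAFT_105385, a predicted protein picked after its values were seen, was the 1 gene with at least 10 counts in every library of one strain and 0 in the other, with 28, 11 and 15 counts in Δvps21 against 0, 0 and 0 in Δvps13, which makes it at least 16.6-fold higher by a floor of 3 counts over the strain. In the opposite direction TRIREDRAFT_105449, a predicted protein with a protein kinase domain picked after its values were seen, had 1.69, 1.51 and 2.06 CPM in Δvps21 against 27.3, 54.7 and 65.99 CPM in Δvps13 (log2 -4.81 ± 0.4 SE, adjusted p = 0.00109). The amidase gene TRIREDRAFT_109378 had 20.2, 20.03 and 20.4 CPM in Δvps21 against 1.08, 1.35 and 2.55 CPM in Δvps13 (log2 3.64 ± 0.38 SE, adjusted p = 0.00263), and TRIREDRAFT_122495 of the glycoside hydrolase family 76, which acts on mannans, had 2.29, 2.42 and 1.74 CPM in Δvps21 against 10.8, 19.6 and 6.42 CPM in Δvps13 (log2 -2.51 ± 0.45 SE, adjusted p = 0.0176). TRIREDRAFT_68997, TRIREDRAFT_105449 and TRIREDRAFT_109378 kept their calls without any 1 library. TRIREDRAFT_105385 (adjusted p = 0.0172) and TRIREDRAFT_122495 lost theirs when any 1 Δvps21 library was left out (adjusted p up to 0.0801 and 0.109). Another family 76 gene, TRIREDRAFT_27395, picked after its values were seen, was higher in every Δvps21 library, with 48.1, 59.1 and 50.3 CPM in Δvps21 against 9.83, 13.9 and 15.2 CPM in Δvps13 (log2 2.02 ± 0.25 SE, adjusted p = 0.00505), and its call held without any 1 library.

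Called genes also occurred side by side. There were 10 runs of at least 3 neighbouring tested genes called in 1 direction, 4 higher and 6 lower, with 31 genes. The longest held 4 genes that fell, TRIREDRAFT_4952, TRIREDRAFT_109793, TRIREDRAFT_66034 and TRIREDRAFT_65819, on NW_006711164.1 from 404651 to 412563, the scaffold that also carries the deleted TRIREDRAFT_123015 at 346840 to 347958. Their levels were low, from 0.405 to 2.27 CPM in Δvps21 against 2.22 to 16.7 CPM in Δvps13, and TRIREDRAFT_65819 has an HSP70 domain. Their log2 differences were -2.41, -3.17, -2.24 and -2.04, with adjusted p of 0.0283, 0.0134, 0.0234 and 0.0153, and all were lost when any 1 Δvps21 library was left out (up to 0.150), TRIREDRAFT_66034 also without Δvps13 replicate 2. Another run of falls joined the regulator gene TRIREDRAFT_121138 to TRIREDRAFT_76682, which has a domain of ABC transporters and was picked after its values were seen. TRIREDRAFT_76682 had 74.3, 54.7 and 92.2 CPM in Δvps21 against 631.9, 2550.6 and 1042.9 CPM in Δvps13 (log2 -4.26 ± 0.57 SE, adjusted p = 0.00612), with Δvps21 below every Δvps13 library, and lost its call without Δvps21 replicate 2 (adjusted p = 0.0602).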

How the data were processed

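Poly-A RNA of mycelia was sequenced, and the deposited table of the authors holds whole-number counts per gene for 10348 genes. Per the submitters' processing notes, HISAT2 2.0.5 and featureCounts 1.5.0-p3 were used. No source used here gives the genome build, annotation or strand setting, so overlapping or near-identical genes are uncertain. The authors also deposited FPKM values, which are the same counts divided by gene length and a factor per library, and these served only as an alternative. Coordinates are those of the deposited table.

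Groups came from the strain labels. Genes passed filterByExpr of edgeR 4.0.16 (minimum count 10), which left out 1777, 375 of them with 0 counts in all 6 libraries. The edgeR quasi-likelihood test with TMM scaling (R 4.3.3) was fitted to the 6 libraries, with 4 residual degrees of freedom and a common biological coefficient of variation of 0.335. The counting interval is exact (Clopper-Pearson) and, like the floor, covers counting error only.

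Alternatives were DESeq2 1.42.0, limma 3.58.1 (voom with quality weights; trend on log2(FPKM + 1) with FPKM of 1 or more), all 9 libraries, other scalings and filters, a log2 minimum of 1, leaving out each library in turn, and a replicate block. Domain names come from a column of the deposited table headed as transcription factor family. The 26 gene lists are patterns in the deposited descriptions, and list members whose role differs from the list name occur. Lists, members and naming rule were chosen with earlier results of these data known. The rule took 103 genes: the 10 largest called rises and falls that do not overlap, have 10 CPM or more and are described, the 2 largest of each with or without a description, up to 2 called genes of smallest p per list and direction, the 3 members with the highest CPM of 8 lists, known regulators, the 3 described genes per direction (50 CPM or more) that set each Δvps13 library apart, and the longest run. Of 108 genes with values in the text, 90 follow it and 18 were chosen after their values were seen. The Δvps13 deletion was not checked, since no gene was matched to vps13.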

Additional observations from a re-analysis of the deposited data

How the results depend on the processing

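All 612 calls had the same sign in every alternative that tested them, and no alternative called one of them in the opposite direction. The number of calls ranged from 64 to 1463 with 1 library left out, with 47 to 792 higher and 17 to 671 lower. DESeq2 called 1235 genes (602 higher, 633 lower), voom with quality weights 2521 (1259 and 1262) and the fit of all 9 libraries 1356 (684 and 672). Scaling by library totals alone gave 494 calls with 166 lower. The cause of these shifts was not tested. The weights of voom were 1.825, 1.132 and 3.011 for Δvps21 and 0.251, 2.805 and 0.229 for Δvps13 replicates 1, 2 and 3, so that fit rests mostly on replicate 2 in Δvps13. Median-ratio factors (607), no filter (612), the stricter filter (449), limma on FPKM (611) and a log2 minimum (584) stayed within 1.5 times. With a replicate block there were 742 calls, without pgk1 (adjusted p = 0.0525) and TRIREDRAFT_122886 (0.0843). The numbers were not treated as pairing the samples, since deviations of same-numbered libraries correlated at 0.5, -0.1 and -0.08. Some libraries of unlike number correlated about as strongly: Δvps21 replicate 2 at 0.44 with Δvps13 replicate 3 and -0.45 with replicate 1, and Δvps21 replicate 1 at -0.4 with Δvps13 replicate 3. The labels give no batch, and whether libraries of the strains share one was not tested.

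Only genes without a call changed sign. With 1 library left out in turn their log2 ran from -0.2 to 0.07 for TRIREDRAFT_122593, -0.4 to 0.86 for TRIREDRAFT_69957, -0.29 to 0.41 for cel1a, -0.27 to 0.72 for TRIREDRAFT_49081, -0.25 to 0.46 for xyr1, -0.2 to 0.46 for ace1, -0.5 to 0.05 for rps31, -0.65 to 1.01 for TRIREDRAFT_121405, -1.35 to 0.03 for acs1, -0.06 to 0.87 for TRIREDRAFT_73417, -0.24 to 0.45 for cip2, -0.22 to 1.24 for TRIREDRAFT_76210 and -1.2 to 0.16 for TRIREDRAFT_80240. Which library turned the sign differed by gene: for cel1a, TRIREDRAFT_49081, xyr1, TRIREDRAFT_121405, acs1, TRIREDRAFT_73417 and TRIREDRAFT_76210 it was, among others, Δvps13 replicate 1. Quality weights gave 0.82 for TRIREDRAFT_69957, -0.01 for cel1a, -0.29 for ace1, 0.62 for TRIREDRAFT_121405, -0.12 for TRIREDRAFT_73417 and -0.08 for TRIREDRAFT_120823. With library totals alone it was 0.11 for TRIREDRAFT_122593 and 0.22 for TRIREDRAFT_69957, on FPKM 0.23 for TRIREDRAFT_69957 and 0.17 for TRIREDRAFT_121405, with the replicate block 0.25 and 0.12 for the same genes. TRIREDRAFT_49081 was at -0.0045 with median-ratio factors and -5.07e-04 with the stricter filter. Genes of few counts, such as TRIREDRAFT_123718, have ratios limited by depth.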

Other observations

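Most of the calls that held without any 1 library belonged to genes without a description, as did most tested genes. An informative description was present in 12 of these 57 calls, in 118 of all 612 calls and in 1539 of the 8571 tested genes. The genes in this paragraph were chosen after their values were seen. TRIREDRAFT_52012 had 314.8, 360.6 and 365.5 CPM in Δvps21 against 20.1, 15.8 and 16.8 CPM in Δvps13 (log2 4.3 ± 0.26 SE, adjusted p = 3.08e-04). TRIREDRAFT_54674 had 114.2, 136.4 and 127.6 CPM in Δvps21 against 12.5, 8.09 and 9.19 CPM in Δvps13 (log2 3.66 ± 0.26 SE, adjusted p = 5.52e-04), and TRIREDRAFT_60810 had 424.3, 321.0 and 272.8 CPM in Δvps21 against 62.2, 48.2 and 73.5 CPM in Δvps13 (log2 2.47 ± 0.29 SE, adjusted p = 0.00422). Lower in Δvps21 was TRIREDRAFT_66776, at 4.65, 3.93 and 2.85 CPM in Δvps21 against 49.6, 55.6 and 128.1 CPM in Δvps13 (log2 -4.34 ± 0.44 SE, adjusted p = 0.00241). In all 4 genes the strains did not overlap, and each call held in the 6 fits without 1 library.

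By annotated domain, counted after the values were seen, transporters of the major facilitator superfamily had 10 rises and 9 falls among 125 tested genes (15.2%), and genes with a sugar transporter domain had 6 rises and 3 falls among 60 (15.0%), beside 7.14% over all genes. Genes with a fungal transcription factor domain had 1 rise and 0 falls among 106 (0.943%). Short-chain dehydrogenases had 0 rises and 4 falls among 49 (8.16%).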
